A study of Mus musculus with 32 samples.

Results

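The response of S49 cells to dexamethasone (dex) after 24 h was compared between 2 lines, to ask which genes changed by different amounts when the anti-apoptotic protein Bcl-2 was present. S49 is a mouse lymphoma line of immature T cells. S49 (Neo) cells carry a retroviral G418 resistance gene, and S49 (Bcl-2) cells carry the resistance gene together with an introduced Bcl-2 gene. Cultures of each line received vehicle (control) or 250 nM dex for 24 h, with 4 replicates in each of 4 groups. These 16 libraries of the 32 in the series were taken by their labels, and the other 16 are the same groups at 48 h. For each gene the difference reported here is the dex change in S49 (Bcl-2) cells minus the dex change in S49 (Neo) cells, in log2 units. A positive difference means a larger rise or a smaller fall in S49 (Bcl-2) cells. Each line is a single stably transfected population, so that introduced Bcl-2 and any other difference between the lines cannot be told apart. No source says that the replicates came from separate cultures, and the p-values therefore measure only the spread between these samples.

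Dex binds the glucocorticoid receptor, a nuclear hormone receptor that moves to the nucleus on binding its ligand and raises or lowers the transcription of genes near its binding sites. In immature T cells this response ends in death through the mitochondrial pathway of apoptosis. BH3-only proteins such as Bim and Puma switch that pathway on, Bax and Bak permeabilize the mitochondrial outer membrane, and Bcl-2 holds both in check.

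The deposited table held 1 normalized log2 value per gene and library for 24538 genes, from -2.38 to 20.15, and the read depth behind a value is unknown. In whole cultures, fewer cells of a kind and less RNA per cell cannot be told apart. Bcl2 itself lay between 10.48 and 11.25 in the 8 S49 (Bcl-2) libraries and between 7.70 and 8.42 in the 8 S49 (Neo) libraries at 24 h, which follows the labels. Of 12 T cell markers, 10 were in the table and 9 passed the filter on low values. Lck lay between 13.91 and 15.18 and Cd3e between 12.70 and 13.03, while Cd5 lay at its floor, between -1.31 and -1.19. Of 5 B cell markers, 0 passed. Myeloid markers (macrophages and granulocytes) passed in 3 of 7 (Lyz2, Itgam and Cd68), and markers of other tissue cells (stroma, endothelium and epithelium) in 1 of 7 (Pecam1). The myeloid list had a log2 summed level of 9.45 to 9.72 in S49 (Neo) controls, 9.55 to 9.65 with dex, 9.55 to 9.88 in S49 (Bcl-2) controls and 9.75 to 10.03 with dex, and its defining markers Csf1r and Adgre1 lay at the floor, at -1.05 or less. The list of other tissue cells, which rests on Pecam1, ran from 10.41 to 10.54, 9.34 to 9.47, 9.77 to 10.04 and 9.07 to 9.38 in the same order, with Cdh5 and Epcam at the floor, at -2.35 or less. The part of such cells in the results was not tested.

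One library stood apart. Across genes, S49 (Bcl-2) dex replicate 3 deviated from the mean of the rest of its group with an SD of 0.766. The other 15 libraries gave 0.111 to 0.313 by the same measure, in which replicate 3 enters the reference of its own group. The deviation of replicate 3 followed the GC content of the transcripts (Pearson's r of 0.749 across 11320 genes). Results are therefore given with all libraries and without this one.

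With all libraries, 2254 of 11562 tested genes (19.5%) differed between the lines in their dex change at an adjusted p under 0.05 (limma with Benjamini-Hochberg adjustment). Of these, 1270 (11.0%) had a more positive change in S49 (Bcl-2) cells and 984 (8.51%) a more negative one. Without replicate 3 the count rose to 4145 of 11561 (35.9%), of which 2007 (17.4%) were more positive and 2138 (18.5%) more negative. 2171 genes were called both ways in the same direction, 96.3% of the first set and 52.4% of the second. Most of the differences were small. The median size of the 2254 was 0.44, 1309 lay below 0.5, and 213 reached 1, of which 151 were positive and 62 negative. Over all tested genes the median difference was -0.02.

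The lines moved broadly the same genes. Dex changed 7812 genes (67.6%) in S49 (Bcl-2) cells and 5841 (50.5%) in S49 (Neo) cells, and 82.6% of the tested genes had the same sign in both (84.2% without replicate 3). The median size of a dex change was 0.34 in S49 (Bcl-2) and 0.22 in S49 (Neo) cells, and 0.31 in S49 (Bcl-2) cells without replicate 3. The 2254 genes were sorted by their calls within each line. In 941 (41.7%) dex acted in both lines in 1 direction and more strongly in S49 (Bcl-2) cells, with median sizes of 0.85 and 0.43. In 693 (30.7%) a change was called in S49 (Bcl-2) cells alone, in 275 (12.2%) in S49 (Neo) cells alone, and in 230 (10.2%) in both lines but with the larger change in S49 (Neo) cells. In 100 genes (4.4%) dex changes were called in opposite directions, 74 of them up in S49 (Bcl-2) cells. The last 15 (0.7%) were called in neither line. Without replicate 3 these classes held 2033, 1010, 474, 413, 191 and 22 genes. The difference across genes correlated with transcript GC content with all libraries (r of 0.35, genes not being independent) and not without replicate 3 (r of -0.03).

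**Figure D1:**
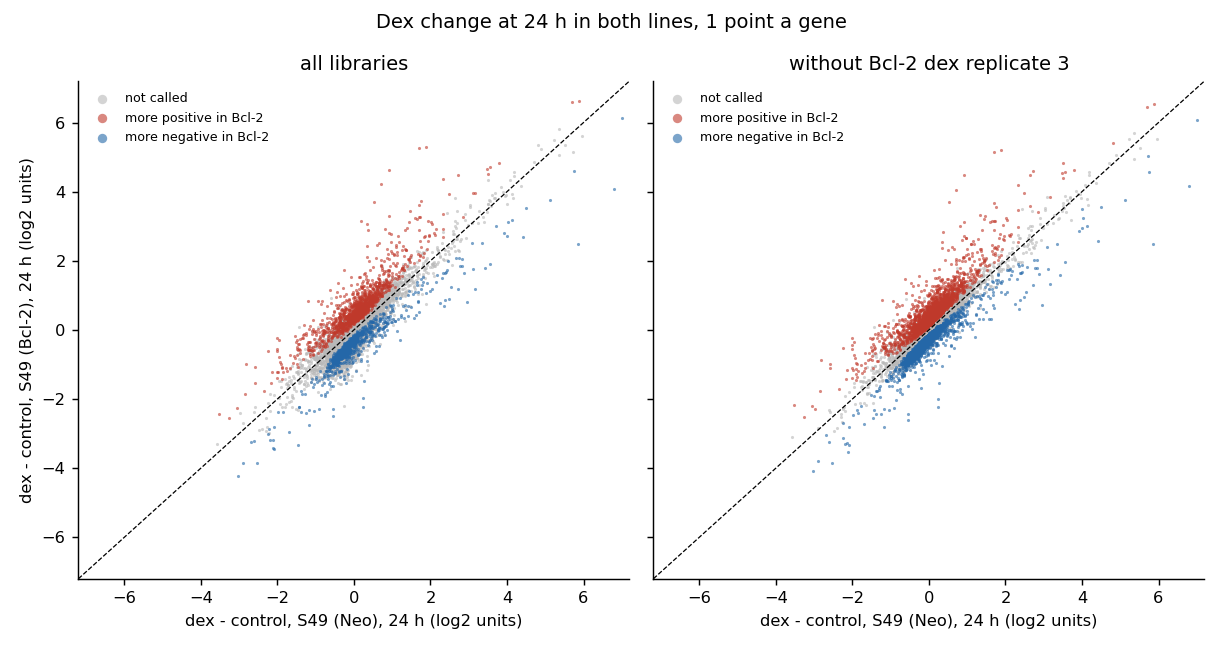
Dex change at 24 h in S49 (Neo) cells (horizontal axis) and S49 (Bcl-2) cells (vertical axis), in log2 units, for each tested gene, with all libraries (left) and without S49 (Bcl-2) dex replicate 3 (right). Red and blue points are genes whose difference between lines was called, and the dashed line marks equal change. Most points lie along the line, and called genes increased from 2254 to 4145 when replicate 3 was left out.

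Epha2, which encodes a receptor tyrosine kinase for membrane-bound ephrin ligands, had the largest positive difference among genes called with and without replicate 3 whose mean value reached that of 100 reads. Epha2 spans chr4:141301240-141329384 (mm10, GENCODE M21). Its log2 values were 7.56, 6.84, 7.26 and 7.03 in S49 (Neo) controls and 8.20, 8.10, 8.39 and 7.70 with dex. The S49 (Bcl-2) values were 6.34, 5.78, 6.04 and 5.98 in controls and 9.39, 9.30, 9.81 and 8.80 with dex. The S49 (Bcl-2) libraries were the lowest of the 16 without dex and the highest with it, and the 4 groups did not overlap. Dex raised Epha2 by 3.29 in S49 (Bcl-2) and by 0.93 in S49 (Neo) cells, a difference of 2.36 (SE 0.24, adjusted p = 8.26e-08), or 2.20 without replicate 3.

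Card6, which encodes a protein with a caspase recruitment domain (chr15:5095981-5108539), started at overlapping levels in the lines. Its controls lay at 5.94, 5.78, 5.67 and 6.28 in S49 (Neo) and at 5.59, 5.53, 5.22 and 6.19 in S49 (Bcl-2) cells. With dex the values were 6.62, 6.89, 6.64 and 6.73 in S49 (Neo) and 8.36, 8.76, 8.31 and 8.82 in S49 (Bcl-2) cells. The controls overlapped and the dex libraries did not, and the difference was 2.12 (SE 0.26, adjusted p = 1.17e-06). Cd69 (chr6:129267325-129275436), an early activation marker of lymphocytes, gave a similar picture. It rose by 2.10 in S49 (Bcl-2) cells, to 9.12, 9.0, 7.55 and 9.95 from controls of 6.36 to 7.34, and it lay between 6.28 and 6.98 in dex-treated S49 (Neo) cells, where the change of 0.34 did not pass the test. Replicate 3 was the lowest of the S49 (Bcl-2) dex libraries, and the Cd69 difference of 1.76 (adjusted p = 0.00723) became 2.21 without it.

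Other genes with large positive differences split by what happened in S49 (Neo) cells. Maff, a small Maf transcription factor, and Tspan9, a tetraspanin of the plasma membrane, rose in both lines and rose more in S49 (Bcl-2) cells (3.23 against 1.60 for Maff and 2.82 against 0.92 for Tspan9). Spsb1, an adaptor of ubiquitin ligases, and Papln, an extracellular matrix protein, rose in S49 (Bcl-2) cells by 1.74 and 1.53, and their changes of -0.26 and -0.07 in S49 (Neo) cells did not pass. P2rx3, an ATP-gated cation channel, Sema4c, a transmembrane semaphorin, Il12rb1, a cytokine receptor chain, and Gsn, the actin-severing protein gelsolin, rose in S49 (Bcl-2) cells, with changes of 0.84, 0.85, 0.76 and 0.83. These 4 genes fell in S49 (Neo) cells, with changes of -1.21, -0.94, -0.86 and -0.84. Plac8, a small cysteine-rich protein, fell in both lines, with a change of -0.99 in S49 (Bcl-2) and of -2.82 in S49 (Neo) cells. The differences of these genes ran from 1.60 for Papln to 2.05 for P2rx3, and from 1.47 for Papln to 2.09 for P2rx3 without replicate 3. The rise of Gsn in S49 (Bcl-2) cells did not pass without replicate 3 (0.75, adjusted p = 0.0637). For Gsn, replicate 4 was the highest library in 4 of 4 groups, its difference of 1.67 had an SE of 0.49, and it was not called in the 24 h libraries alone (adjusted p = 0.0639).

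Starting levels differed for several of these genes. The S49 (Bcl-2) control mean minus the S49 (Neo) control mean was -3.21 for Tspan9, -2.80 for Il12rb1, -2.54 for Sema4c, -2.02 for Plac8 and -1.57 for Spsb1, all lower in S49 (Bcl-2) cells. For Papln it was 1.09.

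The largest negative difference by the same rule was that of Klk4, a secreted serine protease of the kallikrein family (chr7:43881160-43885804). Its values were 4.50, 3.98, 3.76 and 4.16 in S49 (Neo) controls and 4.17, 4.28, 4.56 and 3.93 in S49 (Bcl-2) controls. Dex brought Klk4 to 10.85, 11.03, 10.51 and 11.18 in S49 (Neo) and to 8.14, 8.63, 8.08 and 8.38 in S49 (Bcl-2) cells. From overlapping controls it rose in every dex library of both lines, and the dex libraries of the lines did not overlap. The changes were 6.79 and 4.07, a difference of -2.72 (SE 0.31, adjusted p = 5.47e-07).

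P2rx1, another ATP-gated cation channel (chr11:72999103-73015200), moved in S49 (Bcl-2) cells alone. Its values were 9.93, 10.04, 9.89 and 9.61 in S49 (Neo) controls, 10.33, 10.17, 10.02 and 9.90 with dex, and 10.10, 9.81, 9.67 and 9.45 in S49 (Bcl-2) controls. In dex-treated S49 (Bcl-2) cells they were 7.77, 7.45, 7.47 and 7.39. Those 4 libraries stood below the other 12, which overlapped each other. The difference was -2.47 (SE 0.34, adjusted p = 7.42e-06). Ptcra, the pre-T cell receptor alpha chain (chr17:46755663-46763712), had the same pattern, with 9.86, 9.30, 9.72 and 9.34 in dex-treated S49 (Bcl-2) cells against 10.71 to 11.47 in the other 12 libraries. Its difference was -1.74 (SE 0.29, adjusted p = 8.66e-05).

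Adam19, a membrane metalloprotease (chr11:46055992-46147343), went in opposite directions. It lay at 12.15, 12.03, 12.13 and 12.10 in S49 (Neo) controls and at 12.39, 12.25, 12.44 and 12.28 with dex. In S49 (Bcl-2) controls it was already lower, at 10.47, 10.38, 10.57 and 10.43, and lower again with dex, at 8.49, 8.38, 8.57 and 8.52. The groups did not overlap. The difference of -2.21 (SE 0.12, adjusted p = 1.92e-12) was -2.24 without replicate 3.

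The other large negative differences were of 2 kinds. Ggct, which breaks down gamma-glutamyl dipeptides in the glutathione cycle, Tmc5, a transmembrane channel-like protein, and Smarca2, an ATPase of SWI/SNF chromatin remodelers, rose in both lines, with changes of 1.17, 3.77 and 1.77 in S49 (Bcl-2) cells and of 2.72, 5.12 and 3.12 in S49 (Neo) cells. Tle6, a Groucho-family corepressor, Acot5, an acyl-CoA thioesterase, and Ccr4, a chemokine receptor, fell in both lines and fell more in S49 (Bcl-2) cells (-2.30, -2.76 and -3.46, against -0.56, -1.16 and -2.08 in S49 (Neo) cells). Adgrg1, an adhesion receptor coupled to G proteins, fell by 1.54 in S49 (Bcl-2) cells, with a change of -0.20 in S49 (Neo) cells that did not pass. Ifi202b, an interferon-inducible nuclear protein with near-identical gene copies, gave 9.82, 9.83, 6.73 and 9.85 in dex-treated S49 (Bcl-2) cells. Replicate 3 was 3 units under the other values, and the Ifi202b difference of -1.85 (adjusted p = 0.0135) was -1.08 without it (adjusted p = 8.42e-10). In the 24 h libraries alone Ifi202b was not called (adjusted p = 0.108).

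Of these genes, the exons of P2rx3 overlap Ssrp1, those of Spsb1 Gm13070, those of Sema4c D430040D24Rik, those of Adam19 Gm16033 and Gm16034, and those of Smarca2 4931403E22Rik. The library kit did not mark strand, so reads from such partners cannot be told apart. Of the genes described further on, Arhgef3, Fam169b, Colq, Stpg1, Lef1, Gpr17, Pcnx, Ddr1, Cdkn1a, Hspa8, Gbp2, Ifi35, Nlrc5, Ccna2, Cdc25c, E2f8, Nop56, Cd247, Lck, Lcp2, Runx1, Il6ra and Fadd also share exons with annotated partners. Among the 24 genes with the largest differences, 2 (Gsn and Ifi202b) lost their call under any of the alternatives run, both in the 24 h libraries alone.

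**Figure D2:**
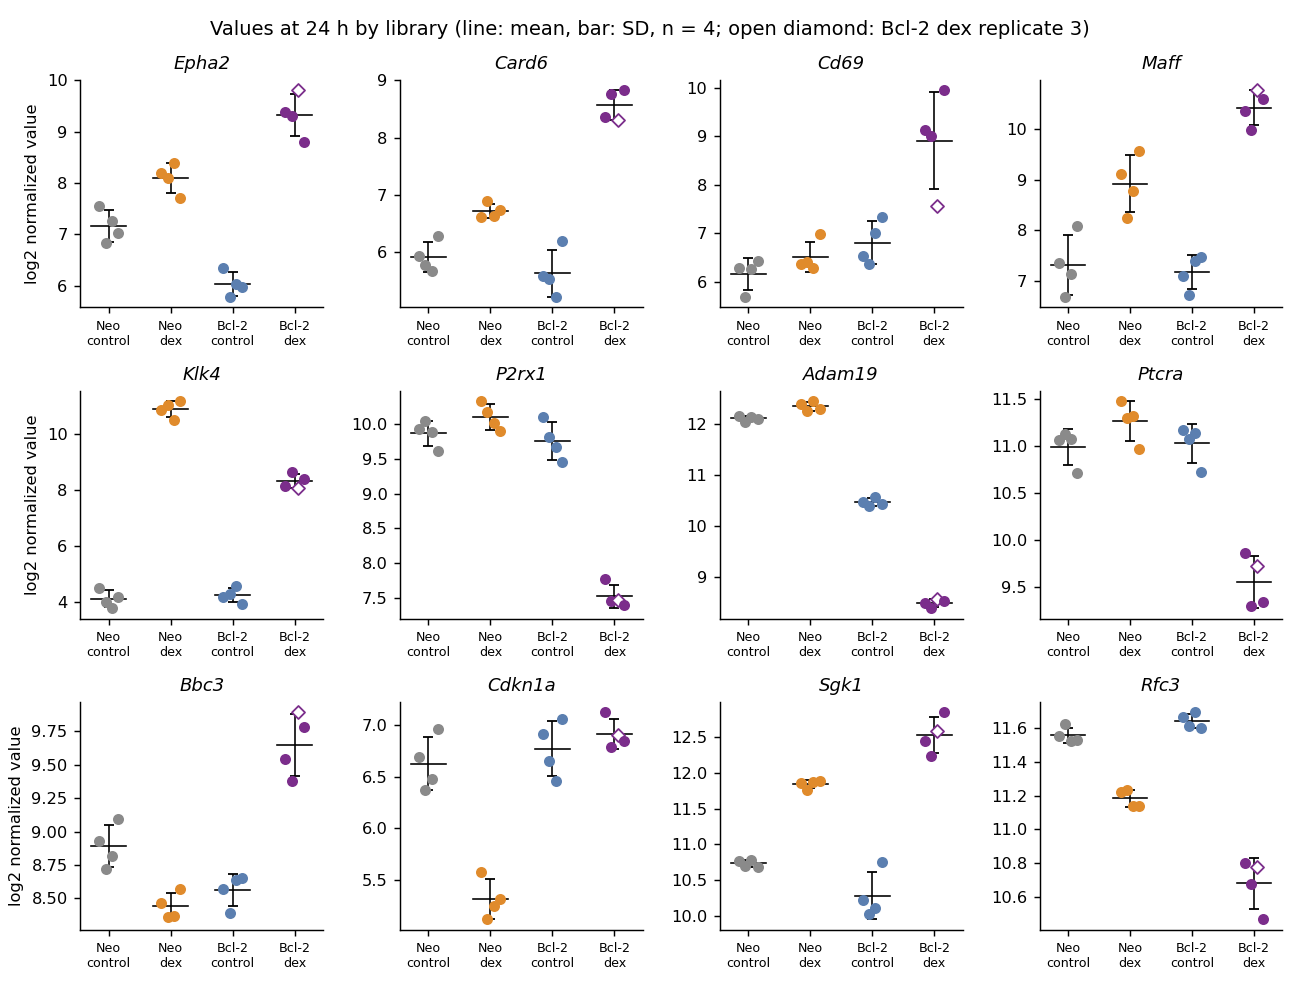
Log2 normalized values of 12 genes in the 16 libraries at 24 h, 4 per group, with the group mean (line) and SD (bar). The open diamond is S49 (Bcl-2) dex replicate 3. The first row holds genes with a more positive change in S49 (Bcl-2) cells, such as Epha2 (8.80 to 9.81 with dex), the second row those with a more negative one, and the third row members of the gene lists described in the text.

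Among genes called in opposite directions, those with the smallest p were Adam19, Syt13, Fam63a, Aff3 and Bbc3. Syt13, an atypical synaptotagmin, fell by 0.89 in S49 (Bcl-2) cells and had a rise of 0.19 in S49 (Neo) cells. Fam63a, a deubiquitinase gene now also named Mindy1, and Aff3, a nuclear protein of lymphoid cells, rose by 0.18 and 0.45 in S49 (Bcl-2) cells and fell in S49 (Neo) cells (-0.88 and -0.28). Among genes called in both lines with the larger change in S49 (Bcl-2) cells, Arhgef3, a guanine nucleotide exchange factor, had a difference of 1.04 (SE 0.06, adjusted p = 1.92e-12). It rose by 2.15 in S49 (Bcl-2) and by 1.12 in S49 (Neo) cells. Fam169b, Colq, the collagen tail of acetylcholinesterase, and Stpg1 fell in both lines, with differences of -1.30, -1.08 and -1.08.

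With the larger change in S49 (Neo) cells stood Akap12, a scaffold of protein kinase A, Cttn, the actin-binding protein cortactin, Osbpl3, an oxysterol-binding protein, and Oat, ornithine aminotransferase. They rose by 3.92, 1.63, 2.82 and 0.80 in S49 (Neo) cells and by 2.80, 0.42, 2.04 and 0.23 in S49 (Bcl-2) cells. Among genes called in S49 (Bcl-2) cells alone the smallest p were those of Spsb1, Lef1, Lonrf1, Aox1, an aldehyde oxidase, and Gpr17, an orphan receptor, with changes of -0.86, -0.78, 1.05 and -1.29 for the last 4. Among genes called in S49 (Neo) cells alone they were those of Pde11a, a cyclic nucleotide phosphodiesterase, Pcnx, Lexm, Fam212b and the collagen receptor Ddr1, with changes of -1.34, 0.62, -1.05, -0.85 and 0.71. Without replicate 3, Ddr1 passed in S49 (Bcl-2) cells as well, with a change of -0.25 (adjusted p = 0.00143). A gene called in 1 line alone is named here only because the difference between the lines was itself called.

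The BH3-only genes, which encode the direct activators and sensitizers of mitochondrial apoptosis, gave 1 member with a called difference among 5 tested, a share like the 19.5% of all genes. Bbc3, which encodes Puma (chr7:16308393-16318205), lay at 8.93, 8.72, 8.82 and 9.09 in S49 (Neo) controls and at 8.47, 8.36, 8.37 and 8.57 with dex. Its S49 (Bcl-2) values were 8.57, 8.39, 8.64 and 8.65 in controls and 9.54, 9.38, 9.89 and 9.78 with dex. The dex-treated S49 (Bcl-2) libraries were the highest of the 16, and dex-treated and control libraries of each line did not overlap. Dex raised Bbc3 by 1.08 in S49 (Bcl-2) cells and lowered it by 0.45 in S49 (Neo) cells, a difference of 1.53 (SE 0.17, adjusted p = 4.38e-07), 1.45 without replicate 3 and 1.90 at 48 h.

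Bcl2l11, which encodes Bim, rose by almost the same amount in both lines. Its values went from 12.41, 12.32, 12.41 and 12.45 to 13.47, 13.47, 13.50 and 13.57 in S49 (Neo) cells. The S49 (Bcl-2) values went from 12.30, 12.30, 12.35 and 12.30 to 13.28, 13.31, 13.16 and 13.50. The difference of -0.11 (SE 0.09, adjusted p = 0.387) did not pass, and this does not show that the rises were equal. Bmf rose most, by 4.57 in S49 (Bcl-2) and 4.19 in S49 (Neo) cells, with a difference of 0.38 (SE 0.33, adjusted p = 0.431). Bad and Bid had differences of 0.23 and -0.33 (adjusted p = 0.269 and 0.0624), and without replicate 3 Bid passed (-0.42, adjusted p = 0.00399). Pmaip1, Bik and Hrk lay below the filter and were not tested.

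The effectors Bax and Bak1 had differences of 0.14 and -0.08 that did not pass (adjusted p = 0.409 and 0.543), and without replicate 3 Bak1 passed at -0.19 (adjusted p = 0.00892). Of the anti-apoptotic members, Mcl1 and Bcl2l1, which encodes Bcl-xL, had differences of -0.04 and 0.16 that did not pass. Mcl1 lay at 14.11, 14.00, 13.17 and 14.03 in dex-treated S49 (Bcl-2) cells, and without the low value of replicate 3 its difference was 0.18 (adjusted p = 0.00696). Bcl2 itself had a difference of 0.50 (SE 0.17, adjusted p = 0.0356). It rose from 10.48, 10.64, 10.62 and 10.72 to 11.08, 11.03, 11.25 and 11.10 in S49 (Bcl-2) cells, and in S49 (Neo) cells its change was 0.00. The Bcl2 call was lost on leaving out 1 of 8 libraries, with adjusted p from 0.0517 to 0.0941 without S49 (Neo) control 1 or 4, S49 (Neo) dex 1, 2 or 3, or S49 (Bcl-2) control 1, 2 or 3. The species of the introduced Bcl-2 gene is not stated in the sources used here. The authors stained both lines with an antibody to human Bcl-2, and only S49 (Bcl-2) cells were positive. How far reads of the introduced gene map to mouse Bcl2 is unknown. The Bcl2 levels and difference therefore cannot be split between the introduced and the native gene. Bcl2a1b was below the filter. Exons of Bid, Bad, Bax, Bak1 and Bcl2 overlap those of Bcl2l13, Gpr137, Gm45808, Ggnbp1 and D630008O14Rik.

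Nr3c1, the gene of the glucocorticoid receptor, rose by 1.03 in S49 (Bcl-2) cells and by 0.98 in S49 (Neo) cells, with a difference of 0.05 (SE 0.19, adjusted p = 0.885). Its dex values in S49 (Bcl-2) cells were 14.59, 14.59, 13.52 and 14.60. Replicate 3 again stood alone, and without it the Nr3c1 difference was 0.32 (adjusted p = 0.00184).

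**Figure D3:**
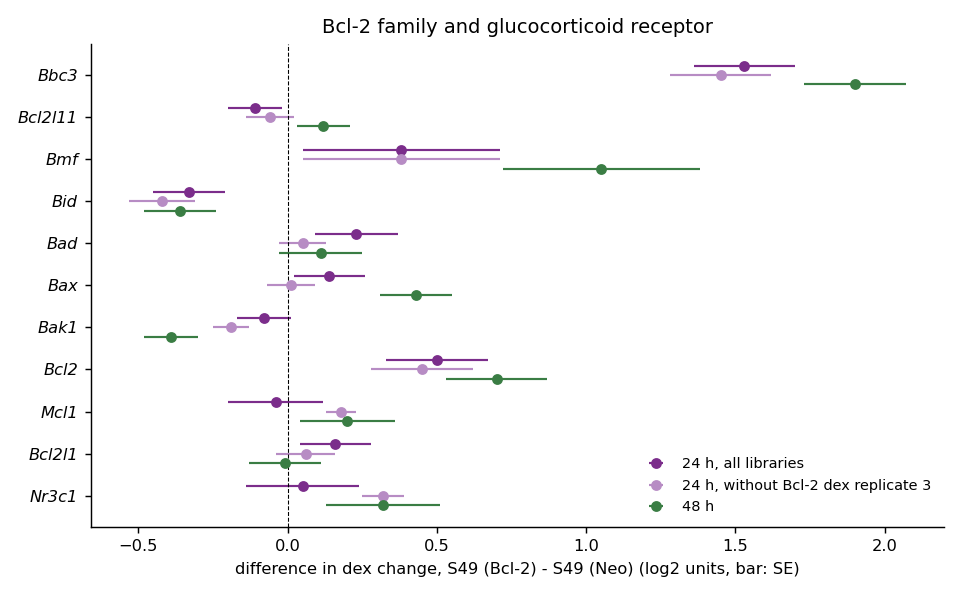
Difference between lines in the dex change (S49 (Bcl-2) minus S49 (Neo), log2 units, bars: SE) for Bcl-2 family genes and the glucocorticoid receptor gene Nr3c1, at 24 h with all libraries, at 24 h without S49 (Bcl-2) dex replicate 3, and at 48 h. Bbc3 stands apart, at 1.53, 1.45 and 1.90.

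Known targets of the glucocorticoid receptor mostly rose in both lines. Of 33 tested, 25 rose and 3 fell in S49 (Bcl-2) cells and 26 rose and 4 fell in S49 (Neo) cells, with median changes of 1.56 and 1.32. Over all 11562 tested genes these counts were 3752 and 4060, and 2892 and 2949. In the difference 11 targets were more positive and 2 more negative, against 11.0% and 8.51% of all genes. Without replicate 3 the counts were 12 and 4, against 17.4% and 18.5% of all genes. The median difference was 0.33, and that of all genes -0.02. The count of more positive targets was 7 in the 24 h libraries alone and without S49 (Bcl-2) control 2 or S49 (Neo) control 4, and that of more negative ones was 1 without any library other than S49 (Neo) control 2, S49 (Neo) dex 4, S49 (Bcl-2) control 4 or S49 (Bcl-2) dex 3. Per1, the circadian repressor, and Fkbp5, the co-chaperone that damps the receptor, had changes of 2.62 and 0.42 in S49 (Bcl-2) cells and 2.69 and 0.48 in S49 (Neo) cells. They were chosen after their values were seen, and their differences did not pass.

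Sgk1, a kinase that controls ion transport and survival (chr10:21882184-21999903), lay at 10.77, 10.70, 10.78 and 10.69 in S49 (Neo) controls and at 11.86, 11.76, 11.88 and 11.89 with dex. In the Bcl-2 line Sgk1 lay at 10.22, 10.03, 10.11 and 10.76 in controls and at 12.45, 12.24, 12.59 and 12.85 with dex. It rose in every dex library, and those of S49 (Bcl-2) cells were the highest. The difference was 1.14 (SE 0.22, adjusted p = 0.000607). Lcn2, an iron-siderophore carrier, rose by 4.37 in S49 (Bcl-2) and by 2.33 in S49 (Neo) cells, a difference of 2.04. Hif3a, an oxygen-responsive transcription factor, rose by 3.51 and by 4.49, a difference of -0.97.

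Cdkn1a, the gene of the cell cycle inhibitor p21, stands in both the receptor target list and the list of p53 targets. It lay between 6.37 and 6.96 in S49 (Neo) controls, 5.12 and 5.58 with dex, 6.46 and 7.06 in S49 (Bcl-2) controls, and 6.79 and 7.12 with dex. The S49 (Neo) dex libraries were below the other 12. Cdkn1a fell by 1.31 in S49 (Neo) cells, its change of 0.14 in S49 (Bcl-2) cells did not pass, and the difference was 1.45 (SE 0.25, adjusted p = 0.000135). Of 20 p53 targets tested, 6 were more positive and 0 more negative in S49 (Bcl-2) cells, and 13 and 1 without replicate 3. Of all genes 11.0% were more positive with replicate 3 and 17.4% without it. After the GC correction 11 targets were more positive. Their median change was 0.20 in S49 (Bcl-2) and -0.16 in S49 (Neo) cells. Besides Cdkn1a and Bbc3, Sesn2, a stress-induced inhibitor of mTORC1, and Zmat3, a zinc finger protein that binds RNA, had differences of 0.92 and 0.52. Both fell in S49 (Neo) cells and rose in S49 (Bcl-2) cells, but the Sesn2 rise of 0.21 was 0.10 and no longer passed without replicate 3 (adjusted p = 0.245).

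Genes induced through Atf4 and the unfolded protein response gave 11 more positive and 1 more negative of 41 tested. Over all genes the shares were 11.0% and 8.51%, and the list had a median difference of 0.10. Without replicate 3 the counts were 12 and 2, against 17.4% and 18.5% of all genes. The negative one with all libraries was Edem1, at -0.24, named after its value was seen. Its call was lost on leaving out S49 (Bcl-2) control 1, 2 or 3, S49 (Neo) control 1 or 4, or S49 (Neo) dex 2, 3 or 4, and without S49 (Bcl-2) dex 2 there were 2 more negative genes. Slc7a11, the cystine transporter, rose by 0.77 in S49 (Bcl-2) cells and fell by 0.61 in S49 (Neo) cells. Trib3, a pseudokinase, and Slc3a2, an amino acid transporter subunit, fell in S49 (Neo) cells (-1.30 and -0.44), with changes of -0.12 and 0.13 in S49 (Bcl-2) cells that did not pass. At 48 h the list stood the other way, with 4 more positive, 23 more negative and a median of -0.37. Of all genes 19.9% and 20.9% were so called at 48 h.

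Genes of DNA replication had a more negative change in S49 (Bcl-2) cells throughout the list. All 56 tested had a negative difference, from -0.77 to -0.13, and 36 were called, against 8.51% of all genes. Without replicate 3, 54 were called, against 18.5% of all genes. The count was 24 after quantile normalization, 24 in the 24 h libraries alone, 30 after median centring and 47 after the GC correction. The median change was -0.52 in S49 (Bcl-2) and -0.19 in S49 (Neo) cells, with 52 and 29 members called down and 0 and 2 called up. Of all 11562 tested genes, 4060 and 2949 were called down and 3752 and 2892 up. Rfc3, a subunit of the clamp loader, lay at 11.55, 11.62, 11.52 and 11.53 in S49 (Neo) controls, 11.22, 11.23, 11.14 and 11.14 with dex, and 11.66, 11.61, 11.69 and 11.60 in S49 (Bcl-2) controls. In dex-treated S49 (Bcl-2) cells Rfc3 lay at 10.80, 10.68, 10.78 and 10.47, below every other library. Its difference was -0.59 (SE 0.08, adjusted p = 1.48e-05), and after a correction for transcript GC content it was -0.41 and no longer passed (adjusted p = 0.0785). Rrm2, the small subunit of ribonucleotide reductase, fell by 0.57 in S49 (Bcl-2) cells, with a change of 0.02 in S49 (Neo) cells. The helicase subunits Mcm4 and Mcm6 fell in both lines (-0.76 and -0.66 in S49 (Bcl-2), -0.26 and -0.28 in S49 (Neo) cells).

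Genes of mitosis had a median change of -0.36 in S49 (Bcl-2) and -0.10 in S49 (Neo) cells. Of 43 tested, 13 were more negative in S49 (Bcl-2) cells and 0 more positive (8.51% and 11.0% of all genes), and 29 were more negative without replicate 3 (18.5% of all genes). The count was 5 after quantile normalization and 8 in the 24 h libraries alone. Cdk1, the mitotic kinase, fell by 0.92 in S49 (Bcl-2) and by 0.55 in S49 (Neo) cells, a difference of -0.37 (SE 0.09, adjusted p = 0.00308). The cyclins Ccna2 and Ccnb1 fell in S49 (Bcl-2) cells (-0.57 and -0.53), with changes of -0.10 and -0.11 in S49 (Neo) cells that did not pass. Their differences lost their calls after quantile normalization (-0.32 and -0.31, adjusted p = 0.0732 and 0.0517), that of Ccna2 also in the 24 h libraries alone (adjusted p = 0.0566). Cdc25c, the phosphatase that activates Cdk1, rose by 0.27 in S49 (Neo) cells and had a change of -0.04 in S49 (Bcl-2) cells. After the GC correction its difference of -0.32 was -0.18 and no longer passed (adjusted p = 0.271). Of the genes of G1 control, 2 of 24 were more positive (Cdkn1a and Mxd1, a Myc antagonist), against 11.0% of all genes. Another 4 were more negative, E2f3 (-0.26) and E2f8 (-0.33) among them, against 8.51% of all genes. Without replicate 3 the counts were 3 and 7, against 17.4% and 18.5% of all genes, and in the 24 h libraries alone 2 and 2. The E2f8 call was lost after quantile normalization or median centring (adjusted p = 0.0855 and 0.0724).

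The promoters of the DNA replication and mitosis genes were searched for the short words that mark cell cycle genes. E2F factors drive genes of DNA synthesis, and the cell cycle homology region (CHR) is found in genes of mitosis. The E2F words TTTCCCGC, TTTCGCGC, TTTGCCGC and TTTGGCGC, on either strand, stood in the window from 250 bases before to 50 after the RefSeq start (GRCm38.p6) in 18 of 47 replication genes that had a window (38.3%), and in 4.86% of 8903 tested genes. The CHR word TTTGAA stood in 27 of 36 mitosis genes (75%) and in 14.3% of the tested genes. Among the replication genes with a called difference the E2F words stood in 13 of 28 (46.4%, against 38.3% of the list). For the mitosis genes with a called difference the CHR word stood in 6 of 9 (66.7%, against 75% of the list). The list shares describe which genes the lists hold, whatever dex did, and their bearing on the difference between lines was not tested. A match describes the letters of the window and is not a bound site. The 150 bases before the start of Mcm6, Cdk1 and Top2a, a topoisomerase that untangles chromosomes, are shown as members with a called difference that hold these words (the 3 were chosen after the values were seen), with E2F words in capitals for Mcm6 and CHR words in capitals for Cdk1 and Top2a. They lie on the minus strand at chr1:128359706-128359855, chr10:69352913-69353062 and chr11:99024190-99024339. GENCODE counts the last 26 bases of the Cdk1 window as part of the gene.
Mcm6: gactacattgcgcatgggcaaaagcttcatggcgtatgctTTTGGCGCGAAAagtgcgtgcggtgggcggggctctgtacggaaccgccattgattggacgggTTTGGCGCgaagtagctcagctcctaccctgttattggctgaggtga
Cdk1: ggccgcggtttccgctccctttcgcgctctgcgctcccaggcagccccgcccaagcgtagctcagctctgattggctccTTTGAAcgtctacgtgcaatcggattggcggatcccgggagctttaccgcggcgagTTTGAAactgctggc
Top2a: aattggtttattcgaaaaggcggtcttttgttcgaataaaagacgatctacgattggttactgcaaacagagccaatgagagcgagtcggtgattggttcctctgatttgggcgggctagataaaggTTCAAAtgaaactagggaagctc
Mcm6 holds 3 E2F words, of which 2 overlap on opposite strands, Cdk1 holds the CHR word in 2 places and an E2F word left in lower case, and in Top2a it lies once, on the opposite strand. The receptor's word AGAACA, on either strand, stood in 2 of the 19 windows found for the 24 genes with the largest differences (10.5%) and in 14.6% of the tested genes.

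Ribosome biogenesis and heat shock genes mostly fell in both lines, and some had more negative changes in S49 (Bcl-2) cells. Of 62 ribosome biogenesis genes, 59 fell in S49 (Bcl-2) and 44 in S49 (Neo) cells, with median changes of -0.65 and -0.33. Of all 11562 tested genes, 4060 and 2949 fell. In the difference 17 ribosome biogenesis genes were more negative and 0 more positive, against 8.51% and 11.0% of all genes. This count was 6 after quantile normalization, 27 after the GC correction, 9 in the 24 h libraries alone, 42 without replicate 3 (18.5% of all genes) and 28 without S49 (Bcl-2) dex 1, and 9 to 11 without S49 (Bcl-2) control 1 or 2, S49 (Neo) control 4 or S49 (Neo) dex 1, 2 or 3. Nop56 and Ddx21, which act in early ribosomal RNA processing, had differences of -0.45 and -0.44. Of 21 heat shock genes, 19 fell in S49 (Bcl-2) and 13 in S49 (Neo) cells. In the difference 8 were more negative and 0 more positive (8.51% and 11.0% of all genes). The count was 14 without replicate 3, 4 after quantile normalization, 5 in the 24 h libraries alone, and 4 or 5 without S49 (Bcl-2) control 1, 2 or 3, S49 (Neo) control 4 or S49 (Neo) dex 2 or 3. The chaperones Hspa4, Hsph1 and Hspa8 had differences of -0.51, -0.54 and -0.39, and Stip1, which links Hsp70 and Hsp90, of -0.34. Stip1 lost its call after quantile normalization (-0.19, adjusted p = 0.0661) or median centring (-0.30, adjusted p = 0.0529). Cytosolic ribosomal protein genes gave 0 called of 78 and 0 at an unadjusted p under 0.05, with 8 more negative without replicate 3, 23 with library weights, 1 after the GC correction and 8 more positive after quantile normalization. They had a median of 0.04. Over all tested genes, 19.5% were called with all libraries, and 18.5% were more negative without replicate 3.

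**Figure D4:**
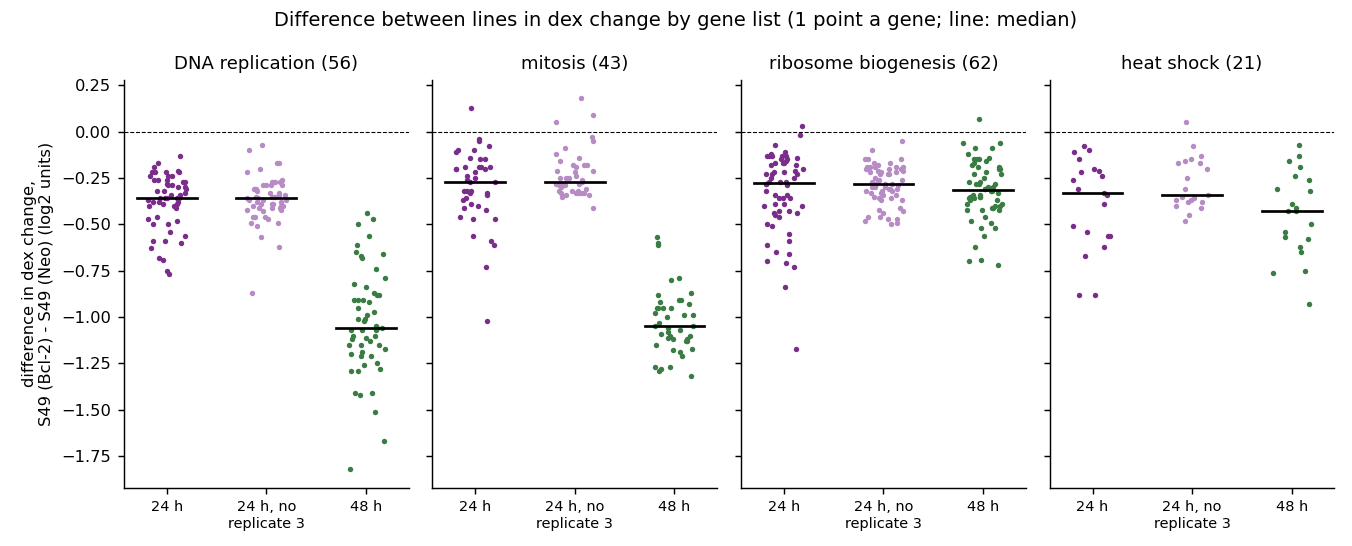
Difference between lines in the dex change (log2 units) for members of 4 gene lists, 1 point a gene, at 24 h with all libraries, at 24 h without S49 (Bcl-2) dex replicate 3 and at 48 h, with the median as a line. The medians of DNA replication and mitosis genes were -0.36 and -0.27 at 24 h and -1.06 and -1.05 at 48 h.

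Among transcription factors and recombination genes of developing T cells, calls were mostly more negative in S49 (Bcl-2) cells. Of 29 tested, 12 were more negative and 1 more positive, against 8.51% and 11.0% of all genes. Without replicate 3 the counts were 14 and 2, against 18.5% and 17.4% of all genes. The median change was -0.52 in S49 (Bcl-2) and -0.15 in S49 (Neo) cells. Lef1, a transcription factor of the Wnt pathway (chr3:131110471-131224356), lay at 14.60, 14.49, 14.53 and 14.51 in S49 (Neo) controls and at 14.55, 14.55, 14.59 and 14.54 with dex. The S49 (Bcl-2) values of Lef1 went from 14.29, 14.23, 14.20 and 14.13 to 13.38, 13.33, 13.40 and 13.31. Its dex and control libraries overlapped in S49 (Neo) cells and not in S49 (Bcl-2) cells, and the difference was -0.88 (SE 0.08, adjusted p = 6.92e-09). Hes1, a Notch target, fell by 0.87 in S49 (Bcl-2) cells, with a change of -0.05 in S49 (Neo) cells. Runx1, a regulator of blood cell development, fell by 1.22 in S49 (Bcl-2) and by 0.57 in S49 (Neo) cells. Ikzf3, or Aiolos, fell by 0.44 in S49 (Bcl-2) cells and rose by 0.36 in S49 (Neo) cells. The 1 more positive gene was Tox (0.82), named after its value was seen.

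T cell receptor signaling genes gave 6 more positive and 4 more negative of 38, near the shares of all genes (11.0% and 8.51%). Without replicate 3 the counts were 7 and 6, against 17.4% and 18.5% of all genes. The 4 more negative became 8 after the GC correction and 2 in the 24 h libraries alone. Lck, the kinase that starts the signal, and Lcp2, the adaptor SLP-76, had differences of -0.50 and -0.43 (-0.62 and -0.40 without replicate 3). Dgka, which removes diacylglycerol, and Cd247, the receptor zeta chain, had differences of 0.94 and 0.52. Cytokine and chemokine receptors gave 10 more positive and 2 more negative of 28, against 11.0% and 8.51% of all genes. Without replicate 3 they gave 12 and 2, against 17.4% and 18.5% of all genes. Ccr7, the lymph node homing receptor, fell by 2.02 in S49 (Neo) cells, from 6.23 to 6.67 down to 4.36 to 4.44. The S49 (Bcl-2) controls of Ccr7 were already at 4.21 to 4.90 and its change of -0.24 did not pass. Il6ra rose by 0.64 in S49 (Bcl-2) and fell by 0.43 in S49 (Neo) cells.

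Among 17 MHC class I genes, 8 were more positive and 1 more negative (9 and 1 without replicate 3), against 11.0% and 8.51% of all genes (17.4% and 18.5%), with a median difference of 0.25. H2-K1 rose by 0.83 in S49 (Bcl-2) cells, from between 9.90 and 10.31 to between 10.74 and 11.08, while its change of -0.18 in S49 (Neo) cells did not pass. H2-D1 rose by 0.28 in S49 (Bcl-2) and fell by 0.26 in S49 (Neo) cells. H2-T23 had a difference of 0.73 and Nlrc5, the transactivator of class I genes, of 0.44. H2 genes have close copies between which the counting can split reads. The more negative gene was H2-T3 (-0.60), named after its value was seen. Of 36 interferon-stimulated genes, 6 were more positive and 1 more negative, and 11 and 2 without replicate 3, against 11.0% and 8.51% of all genes with it and 17.4% and 18.5% without it. The more negative count was also 2 without S49 (Bcl-2) dex 2 or 4 or S49 (Neo) control 1. Gbp2, a guanylate-binding protein, rose by 1.21 in S49 (Bcl-2) cells, with a change of -0.28 in S49 (Neo) cells, and Ifi35 rose by 1.85 in S49 (Bcl-2) and by 1.28 in S49 (Neo) cells.

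Lysosomal genes mostly rose in both lines, 31 of 41 in S49 (Bcl-2) and 25 in S49 (Neo) cells. Of all 11562 tested genes, 3752 and 2892 rose. In the difference 15 lysosomal genes were more positive, against 11.0% of all genes, with a median of 0.19. Without replicate 3 the count was 17, against 17.4% of all genes. It was 11 in the 24 h libraries alone, and 11 to 20 on leaving out 1 other library. Grn, the progranulin gene, had a difference of 0.81, Laptm5, a lysosomal membrane protein of blood cells, of 0.60, and Tpp1, a lysosomal peptidase, of 0.40. The 1 more negative gene with all libraries was Sgsh, the heparan sulfamidase (2 without S49 (Bcl-2) dex 1, 2 or 3). Sgsh rose from between 2.95 and 3.08 to between 5.18 and 5.58 in S49 (Neo) cells and from between 2.77 and 3.0 to between 3.30 and 3.85 in S49 (Bcl-2) cells. Its difference was -1.65 (SE 0.16, adjusted p = 2.4e-08) at values near the filter. Sgsh, Grn and Dgka share exons with Card14, Fam171a2 and Pmel.

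Among NF-kB subunits, inhibitors and targets, 6 of 19 were more positive and 0 more negative (11.0% and 8.51% of all genes), and 6 and 3 without replicate 3 (17.4% and 18.5% of all genes). The more positive count was 3 in the 24 h libraries alone and without S49 (Bcl-2) control 1 or 3, S49 (Neo) control 4 or S49 (Neo) dex 3. The feedback inhibitors Nfkbiz, Nfkbia and Tnfaip3 had differences of 0.79, 0.65 and 0.61. Early response genes of the AP-1, Egr and Nr4a families had a median difference of 0.25. With all libraries limma called 0 of 19, against 19.5% of all genes, and 2 were more positive at an unadjusted p under 0.05. The count was 0 without replicate 3, 1 with library weights or without S49 (Neo) control 2, and 2 without S49 (Bcl-2) dex 2 or S49 (Bcl-2) control 4, and it was higher with a replicate block. Fos, an AP-1 subunit, had a difference of 1.53 with an SE of 0.63 (adjusted p = 0.0856), and it passed without any 1 of those 3 libraries (1.81 to 1.93, adjusted p from 0.0253 to 0.041). Replication-dependent histones gave 0 calls of 47 and 0 at an unadjusted p under 0.05 (1 call without replicate 3 or with library weights), oxidative phosphorylation 3 of 67 (16 without replicate 3, and 5 or 6 without S49 (Bcl-2) dex 1 or 2) and cholesterol synthesis 3 of 26 (7 without replicate 3, and 5 without S49 (Bcl-2) dex 2). These medians ran from -0.22 to -0.03. Of all genes, 19.5% were called with all libraries and 35.9% without replicate 3. Caspase and apoptosome genes gave 1 more positive and 4 more negative of 22, and 8 and 4 without replicate 3, against 11.0% and 8.51%, and 17.4% and 18.5%, of all genes. The 4 more negative became 1 after quantile normalization, 2 after the GC correction and 2 without S49 (Neo) control 4 or S49 (Neo) dex 3, and the 1 more positive became 0 without S49 (Bcl-2) control 1, 2 or 3, S49 (Bcl-2) dex 4, S49 (Neo) control 1 or 4, or S49 (Neo) dex 1 or 2. Fadd, the death receptor adaptor, rose by 0.44 in S49 (Neo) cells and had a change of 0.07 in S49 (Bcl-2) cells. Cycs, cytochrome c, fell by 1.06 in S49 (Bcl-2) and by 0.71 in S49 (Neo) cells, and after a correction for transcript GC content its difference of -0.35 was -0.06.

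**Figure D5:**
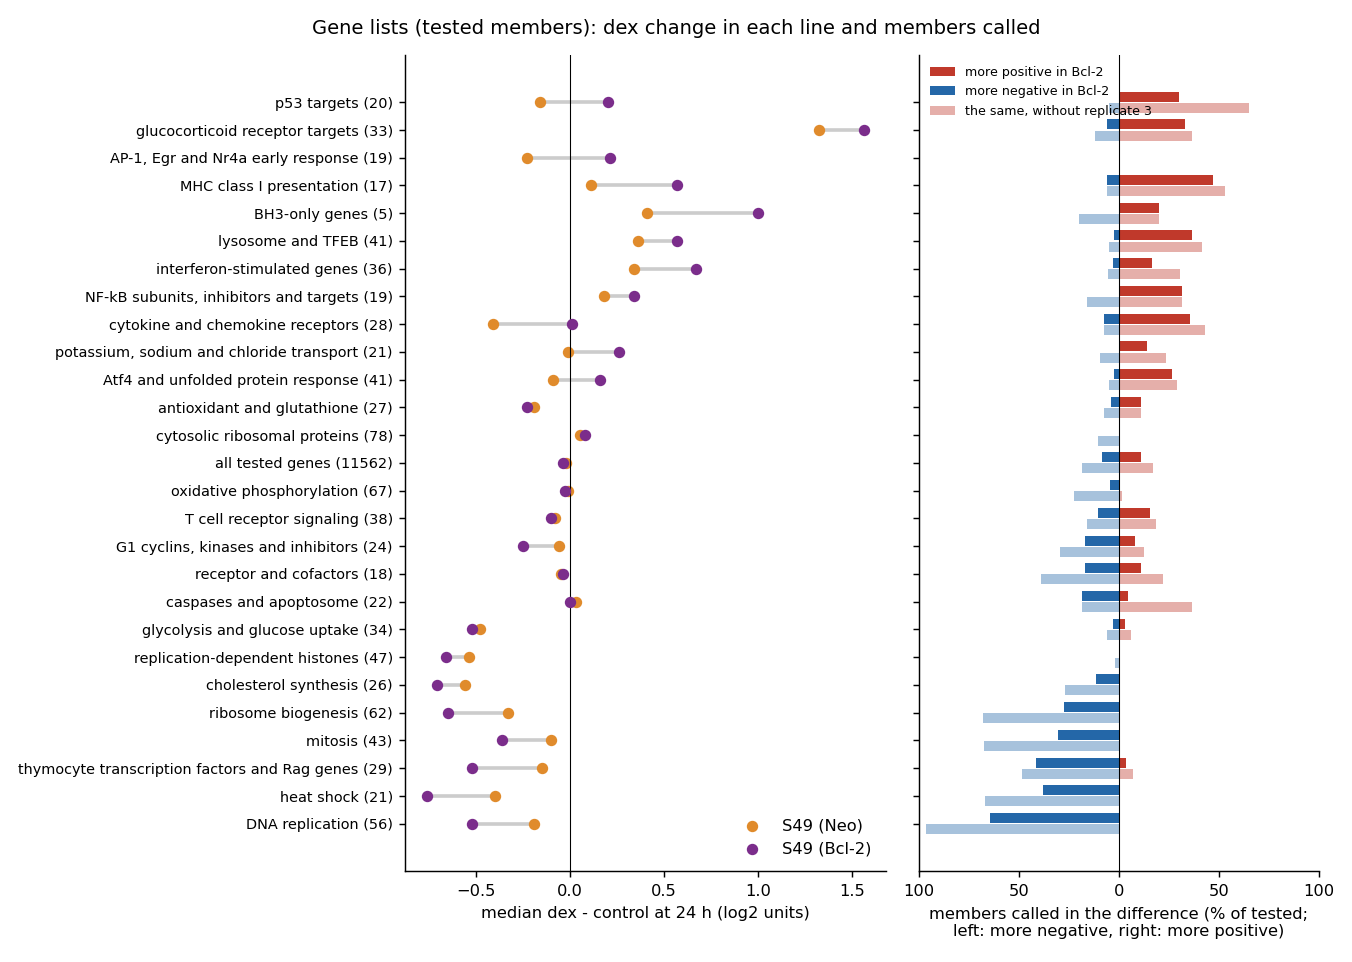
Left, median dex change at 24 h (log2 units) of the tested members of each gene list in both lines, with the number tested in brackets. Right, the percentage of members called as more negative (blue) or more positive (red) in S49 (Bcl-2) cells, with all libraries (dark) and without S49 (Bcl-2) dex replicate 3 (pale). DNA replication genes (36 of 56, and 54 without replicate 3) stand at the bottom and p53 targets (6 of 20, and 13) at the top.

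The 48 h libraries do not enter the 24 h means, but they share its estimate of the spread. Their own difference between lines gave 2297 more positive (19.9%) and 2418 more negative genes (20.9%). Of the 1270 genes more positive at 24 h, 986 (77.6%) were called in the same direction at 48 h, and of the 984 more negative ones 798 (81.1%). Both together are 1784 genes, 79.1% of the 24 h calls and 37.8% of the 48 h calls, and 9 genes were called in the opposite direction. Klk4 (-3.10 at 48 h), Adam19 (-2.78), Papln (2.42), Gsn (2.19), Adgrg1 (-2.31) and Cdkn1a (2.35) had larger differences at 48 h than at 24 h, though the change with time was not tested. The differences of Sgk1 (0.09), Ccr4 (-0.19), Trib3 (0.27), Maff (0.64) and Il12rb1 (0.43) did not pass at 48 h. DNA replication and mitosis genes were called as more negative in 54 of 56 and 41 of 43.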

How the data were processed

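The authors made poly(A)-enriched libraries, aligned reads to mm10 with STAR, counted them per gene with featureCounts and normalized them with DESeq2. They deposited 1 table of log2 normalized values, and which transform gave these log2 values is not given in the sources used here. The lowest values at 24 h differed between genes, such as -2.29 for Bik and 0.00 for the B cell marker Ms4a1. Changes of low genes may therefore be shrunken. 26 genes carry a date in place of a symbol and were never named. The number of columns matched to no sample was 0.

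The deposited log2 values of all 32 libraries were fitted with limma 3.58.1 in R 4.3.3. Each of 8 groups had its own mean, and the moderated spread was allowed to vary with expression level. Only genes averaging 3.46 or more, which is log2 of 11, were tested. Calls use a Benjamini-Hochberg adjusted p under 0.05 over all tested genes. The code was tested on simulated data.

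Named genes were first the 12 largest differences in each direction called with and without S49 (Bcl-2) dex replicate 3. Their mean had to reach 6.66, which is log2 of 100 plus 1 on this scale and not a known number of reads. Added to these were the 5 smallest p of each class by the same rules, Bcl2, Nr3c1 and Bcl-2 family genes. Up to 4 members with the smallest p of each list were also named. Gene models known by clone names were passed over. The comparison, genes and lists were chosen with earlier results of these data known. Gene positions come from GENCODE M21 and promoter windows from RefSeq. Alternatives were other filters, scalings, library weights, spread models, replicate blocks, a GC correction and each library left out in turn.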

Additional observations from a re-analysis of the deposited data

Results flagged for a closer look

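The difference between the lines in the dex change was itself tested, and 2254 genes passed (limma, adjusted p under 0.05). Among the 236 groups of 4 library values looked at for the genes named individually, 12 held a library far from the other values, and chance gives about 1 in 20. Of these, 5 were S49 (Bcl-2) dex replicate 3. Its values were 6.73 for Ifi202b, 13.52 for Nr3c1, 13.17 for Mcl1 and 12.49 for Bak1, and 10.73 for Bad. The change of these differences without it is given with each gene in the report, except Bad, whose difference was 0.23 with it and 0.05 without it.

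Replicate 4 stood apart for Gsn in S49 (Neo) dex (9.59) and S49 (Bcl-2) control (9.69), for Ptcra in S49 (Neo) control (10.71), and for Adgrg1 and Bmf in S49 (Bcl-2) control (12.38 and 8.67). S49 (Bcl-2) control replicate 3 stood apart for Lonrf1 (10.27) and Bcl2l11 (12.35), by small gaps. The other Bcl2l11 values of that group were all 12.30.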

How the results depend on the processing

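The main counts were 2254 genes, 1270 more positive and 984 more negative. Leaving out 1 library at a time gave 1754 to 4145 genes (1007 to 2007 more positive and 747 to 2138 more negative). The highest values came without S49 (Bcl-2) dex replicate 3 and the lowest without S49 (Neo) control replicate 4. The 24 h libraries alone, with fewer samples to estimate the spread, gave 1473 (587 more negative). Library weights gave 5368 (2648 and 2720), quantile normalization left 634 more negative, and a correction for transcript GC content gave 1517 more negative. The cause of these shifts was not tested.

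Replicate numbers are shared by the groups, but the labels do not say that they pair libraries. Deviations of same-numbered control and dex libraries correlated at 0.198 to 0.225 in S49 (Bcl-2) and at 0.053 to 0.476 in S49 (Neo) cells, and own numbers correlated best in 4 of 4 and 3 of 4 controls. A replicate block within a line and time gave 2688 genes, and one shared by all groups 2910. Among the 19 early response genes they called 4 and 3 as more positive, and Fos passed in both (1.53, adjusted p = 0.00067 and 0.00287). The GC correction with the replicate block gave 3917 (2073 and 1844). The replicate block without S49 (Bcl-2) dex replicate 3, chosen after seeing the data, gave 4856 (2328 and 2528).

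Of the 153 tested genes chosen by the naming rule, 121 had a called difference. Of these, 0 reversed under 28 settings, 92 kept their call in every one and 29 lost it in at least 1. The uncalled Mcl1 difference ran from -0.13 to 0.18 on leaving out 1 library, and was 0.16 with library weights and with the replicate block without replicate 3.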
